A study of Sus scrofa with 12 samples.

Results

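Complement is a set of plasma and tissue proteins that mark cells and debris for clearance. In the classical pathway, C1q binds a target such as an antibody, a pentraxin or a dying cell, and the attached proteases C1r and C1s then cut C4 and C2. The fragments form an enzyme that cuts C3, the step at which all pathways meet, and factor D starts the alternative pathway that amplifies it. C5 to C9 can then assemble into a pore in the target membrane, in which C7 gives the growing complex its hold on the lipid. Most circulating complement is made in the liver, but macrophages are a main source of C1q, and fibroblasts and other stromal cells also make several components. In the ovary, complement fragments have been found in follicular fluid.

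The 9 complement components measured here were C1QA, C1QB, C1QC, C1R, C1S, C2, C3, C7 and CFD, the gene of factor D. They were picked by name as complement components made in the ovary, and all 9 were found under exactly these symbols among the 29884 gene names of the expression table. The small litter size group (SLS) held the left ovaries ZD2, ZD3, ZD12 of 3 sows, and the large litter size group (LLS) held ZD5, ZD7, ZD8 of another 3. Values of the ovaries are given in this order throughout. The sows of both groups came from 1 commercial piggery and were sampled 4 days after delivery number 4. Litter size was 8.48 ± 0.53 piglets in the SLS group and 16.19 ± 0.43 piglets in the LLS group, as the labels state it. The labels do not name the error, and the study's methods give SEM for its results in general. No treatment, allele or breed is named in the labels. Each ovary gave 1 library of RNA without ribosomal RNA, so that whole tissue was measured, and fewer cells of a type cannot be told apart from less RNA per cell. Levels are in FPKM, reads scaled to transcript length and to library size.

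The libraries held between 32272803 reads (ZD8) and 60903268 reads (ZD2). The LLS ovary ZD8 stood apart from the others in its luteal genes. The summed level of 6 luteal markers was 123 FPKM in ZD8, where the other 5 ovaries had 9167 to 12191 FPKM, and the sum of the theca markers CYP17A1 and INSL3 was 415 FPKM in ZD8 against 9.31 to 74.4 FPKM. Differences between the groups are therefore given with and without ZD8. Its part in the results was not tested.

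All 9 genes were expressed in all 6 ovaries, and their levels fell into a high and a low class. C7 had the highest median over the ovaries, 164 FPKM, followed by C3 with 138, C1S with 127 and C1R with 115 FPKM. This order holds for the transcript lengths used in the deposited values, and with the curated transcript of 2135 nt in place of 2895 nt, chosen after seeing the data, C1S had a median of 172 FPKM and came first. The other 5 genes were lower, with medians of 31.7 FPKM for C1QB, 31.6 for C1QC, 14.8 for C1QA, 11.5 for CFD and 6.83 for C2. By median level, C7 was number 278 of the 12260 genes tested (the top 2.27%), and C2 was number 7135. The C7 gene is marked as incomplete in the annotation, and its level and rank rest on the 2522 nt length given there. The step between C1R and C1QB was the only one between neighbours in this order at which the ranges over the ovaries did not overlap, and C1R was between 3.38 and 6.47 times the level of C1QB within an ovary. C7 was above C3 in 6 of 6 ovaries, by 1.04 to 2.03 times, although their ranges overlapped. C3 was above C1S in 3 of 6 ovaries, and C1QB was above C1QC in 1 of 6, so that the order of these pairs was not the same from ovary to ovary.

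**Figure D1:**
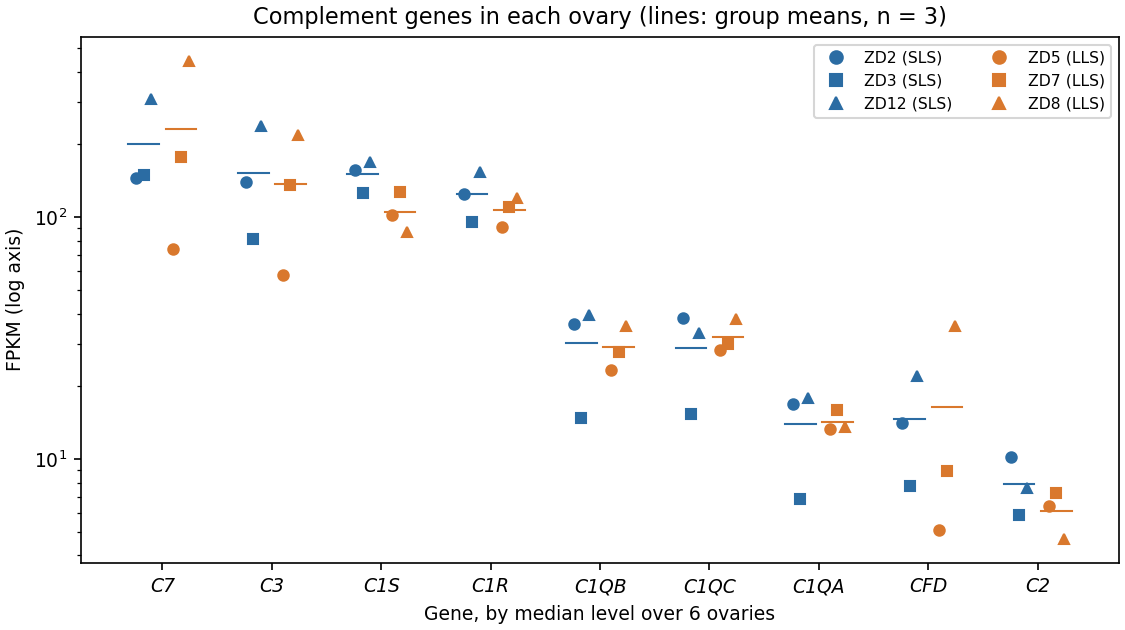
FPKM (log axis) of the 9 complement genes in each of the 6 ovaries, ordered by median level. Points are ovaries, coloured by group, and short lines are group means (n = 3). C7, C3, C1S and C1R lie between 57.6 and 444 FPKM, and the other 5 genes lie between 4.68 and 39.6 FPKM.

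C1q is built from 3 kinds of chain, the products of C1QA, C1QB and C1QC, which wind around each other in a collagen-like stem and end in a globular head that binds the target. In Sscrofa11.1 the 3 genes lie side by side on chromosome 6, plus strand, within 19818 bases, with C1QA at 80586259 to 80589213, C1QC at 80592591 to 80597464 and C1QB at 80601680 to 80606076. Their curated RefSeq reading frames code for 247, 246 and 245 residues in the order A, B, C. The chains were 40.4% identical between A and B, 43.3% between A and C and 47.9% between B and C. In the stem, glycine recurs at every 3 residues, and the longest unbroken stretch of such triplets was 16 in the A chain, 14 in the B chain and 16 in the C chain. The first 30 bases of that stretch are shown to make the shared repeat visible, read 5′ to 3′ from the reference genome, with the glycine codons in capitals. All of them lie in exon 3 of 3 of the curated transcript, at chr6:80588463-80588492 for C1QA, chr6:80605393-80605422 for C1QB and chr6:80596640-80596669 for C1QC.
C1QA: GGCatccgcGGCcttaaaGGAgaccagGGG
C1QB: GGAgagaagGGAgatccaGGGattcctGGG
C1QC: GGGacacgtGGAcccaagGGTgagaagGGA

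C1QA was at 17.0, 6.86 and 17.9 FPKM in SLS and at 13.3, 16.0 and 13.5 FPKM in LLS. C1QB was at 36.4, 14.8 and 39.6 FPKM in SLS and at 23.5, 27.8 and 35.6 FPKM in LLS. C1QC was at 38.2, 15.3 and 33.3 FPKM in SLS and at 28.2, 29.9 and 38.0 FPKM in LLS. All 3 chains were lowest in the SLS ovary ZD3, and the LLS values lay inside the SLS range for each of them. Between 542 and 2693 reads lay behind each of these values. The group means were 13.9 ± 6.13 against 14.3 ± 1.53 FPKM for C1QA, 30.3 ± 13.5 against 29.0 ± 6.14 for C1QB and 28.9 ± 12.04 against 32.0 ± 5.22 for C1QC (SLS against LLS, SD, n = 3 ovaries).

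Within an ovary, the chains kept a narrower ratio than their levels did. C1QB was between 0.831 and 1.19 times C1QC, while C1QC itself varied 2.49 times between the lowest and the highest ovary. C1QA was lower, between 0.356 times C1QC in ZD8 and 0.539 times in ZD12, with a median of 0.459. This ratio depends on the transcript length by which the reads were divided. The deposited values of C1QA gave whole reads with the predicted transcript of 1527 nt in 6 of 6 ovaries and with the curated transcript of 846 nt in 0 of 6, so that the longer length had been used. With 846 nt, a change chosen after seeing the data, the same reads gave 12.4 to 32.3 FPKM and a median ratio of C1QA to C1QC of 0.829 (0.643 to 0.972). The length is the same in every ovary, and it enters the comparison of groups only through the 1 added before the logarithm.

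**Figure D2:**
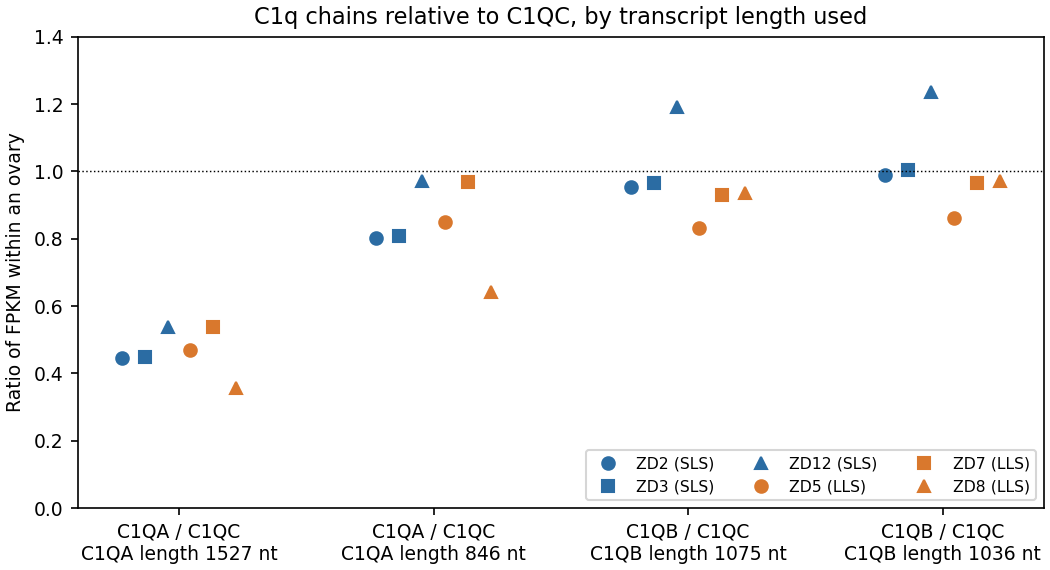
Ratio of the FPKM of C1QA or C1QB to that of C1QC within each ovary, with the length of the longest annotated transcript, as deposited, and of the curated one. Points are ovaries and the dotted line marks a ratio of 1. The C1QA ratio has a median of 0.459 with 1527 nt and of 0.829 with 846 nt.

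C1r and C1s are the serine proteases that sit on C1q, and C1r activates C1s. Their genes are neighbours on chromosome 5 and point towards each other, with C1R on the plus strand at 63644097 to 63655149 and C1S on the minus strand at 63670309 to 63681466. Their proteins, of 706 and 687 residues, were 41.0% identical over 664 aligned residues. C2, which also carries a protease domain, lies on chromosome 7 at 24020590 to 24034042, and CFD on chromosome 2 at 77509792 to 77511988. The 30 bases that code for the active site serine are shown for the 3 genes in which the glycine, aspartate, serine, glycine, glycine motif was found, with the codons of the motif in capitals. They lie at chr5:63654868-63654897 on the plus strand, in exon 11 of 11, for C1R, and at chr5:63670896-63670925 on the minus strand, in exon 11 of 11 of the curated transcript, for C1S. In CFD they span the junction of exons 4 and 5 of 5, between chr2:77509998-77510433 on the minus strand, and are shown spliced.
C1R: tgccagGGGGACAGCGGAGGGgtctttgca
C1S: tgtaacGGTGACAGTGGTGGGgcctttgct
CFD: tgcaagGGCGACTCCGGAGGCccgctggtg

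C1R was at 125, 95.8 and 154 FPKM in SLS and at 91.6, 110 and 120 FPKM in LLS. It varied least of the 9 genes, by 1.68 times between the lowest and the highest ovary. C1S was at 157, 126 and 169 FPKM in SLS and at 102, 127 and 87.0 FPKM in LLS. The groups overlapped only through ZD7, which lay just above ZD3. The means of C1S were 151 ± 22.2 FPKM in SLS and 106 ± 20.4 FPKM in LLS (SD, n = 3). The ratio of C1R to C1S was between 0.760 and 0.910 in 5 ovaries and 1.38 in ZD8, where C1S was at its lowest. With the curated C1S length the same ratio was 0.561 to 0.671 in 5 ovaries and 1.02 in ZD8.

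C2, which C1s cuts to give the protease of the C3-cutting enzyme, had the lowest median of the 9 genes, although CFD was below it in ZD5. It was at 10.2, 5.91 and 7.59 FPKM in SLS and at 6.38, 7.27 and 4.68 FPKM in LLS. The groups overlapped, and the lowest value, that of ZD8, rested on 389 reads.

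C3 carries a reactive thioester by which its large fragment bonds to the target. The gene lies on the plus strand of chromosome 2 at 72431470 to 72471622, 5038169 bases before CFD. The stretch that codes for the thioester is shown because this chemistry defines the protein. It lies at chr2:72456731-72456760 in exon 24 of the 41 exons of the curated transcript, with the codons of the glycine, cysteine, glycine, glutamate, glutamine motif in capitals.
C3: ccctccGGCTGTGGGGAGCAGaacatgatc

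C3 was at 139, 81.6 and 238 FPKM in SLS and at 57.6, 136 and 219 FPKM in LLS. CFD, whose protease cuts factor B once that is bound to C3, was at 14.1, 7.75 and 22.0 FPKM in SLS and at 5.08, 8.91 and 35.4 FPKM in LLS. The C7 gene, on chromosome 16 at 25846860 to 25902707 and marked as incomplete in the annotation, was at 145, 149 and 308 FPKM in SLS and at 74.3, 178 and 444 FPKM in LLS. All 3 genes were lowest in the LLS ovary ZD5, and their highest and next highest values were those of ZD12 and ZD8 in either order. Of all tested genes, 44.6% were highest in ZD8 and 14.3% in ZD12, and 19.0% were lowest in ZD5. C3, C7 and CFD varied most of the 9 genes, by 4.13 times for C3, 5.98 times for C7 and 6.98 times for CFD, where the median over the tested genes was 2.40 times. The means were 138 ± 80.7 FPKM for C3, 232 ± 191 for C7 and 16.5 ± 16.5 for CFD in LLS (SD, n = 3), and 153 ± 79.1, 201 ± 92.9 and 14.6 ± 7.15 FPKM in SLS. The SD was thus nearly the same in both groups for C3 and larger in LLS for C7 and CFD. On the log2 scale the SD was larger in LLS for 4 of the 9 genes and for 68.1% of all tested genes.

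CFD lies inside the span of MED16, a Mediator subunit gene on the opposite strand. The libraries kept the strand, since the cDNA strand made second was removed with uracil DNA glycosylase, but whether reads were counted by strand is not given in the sources used here. MED16 was at 16.5 to 26.0 FPKM in the 6 ovaries, a narrower range than that of CFD.

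**Figure D3:**
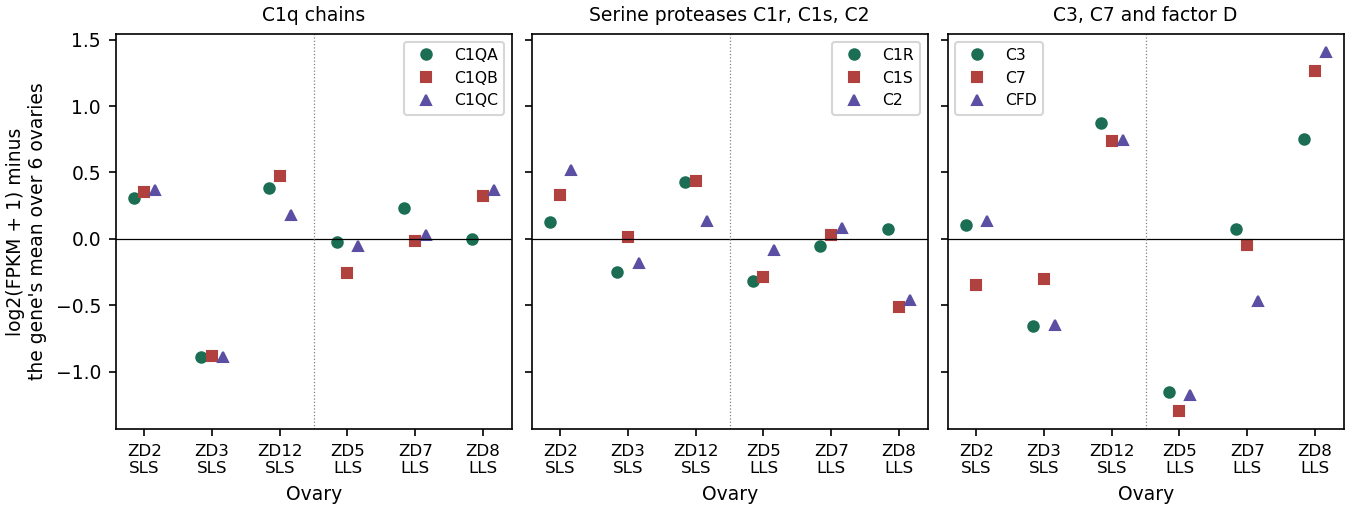
log2(FPKM + 1) of each gene minus its mean over the 6 ovaries, by ovary, in 3 panels of 3 genes. The C1q chains have their lowest values in ZD3 (-0.89 for each), while C3, C7 and CFD have theirs in ZD5 (-1.30 to -1.15) and lie between 0.75 and 1.41 in ZD8.

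Between LLS and SLS ovaries, 0 of the 9 genes were called by limma (adjusted p below 0.05 with a log2 difference beyond 1 either way), and each had an adjusted p of 0.999. The background was 0 of the 12260 genes tested (0%), so the count says nothing particular about complement. At an unadjusted p under 0.05 there were 0 of the 9 genes and 216 of all genes. The 3 LLS values did not lie above or below all 3 SLS values for any of the 9, where this held for 1.95% of the tested genes upward and 3.17% downward. As LLS minus SLS in log2(FPKM + 1), C1S had the difference furthest from 0, -0.52 (95% confidence interval -1.24 to 0.21). For C2 it was -0.31 (-1.002 to 0.38), for C3 -0.22 (-1.53 to 1.10) and for C1R -0.20 (-0.93 to 0.54). The C1q chains had 0.13 (-0.72 to 0.99) for C1QA, 0.04 (-0.88 to 0.95) for C1QB and 0.23 (-0.62 to 1.08) for C1QC. For C7 the difference was -0.06 (-1.55 to 1.44) and for CFD -0.16 (-1.65 to 1.33). In the exact two-sided permutation test of each gene, whose smallest possible p is 0.1 at this size, p ran from 0.2 for C1S to 1.

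Without ZD8 the differences of C3, C7 and CFD moved down, to -0.65, -0.70 and -0.90, and the interval of CFD was -1.79 to -0.01 with an adjusted p of 0.835 by limma. C1S moved to -0.39, C1R to -0.28, C2 to -0.16, C1QA to 0.17, C1QC to 0.10 and C1QB to -0.12. The median difference over the 9 genes was -0.16 with all ovaries and -0.28 without ZD8, beside 0.02 over all tested genes with all ovaries and -0.10 without ZD8. The groups still overlapped for each of the 9 genes, where without ZD8 the LLS values lay above all SLS values for 7.53% of genes and below them for 11.5%.

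**Figure D4:**
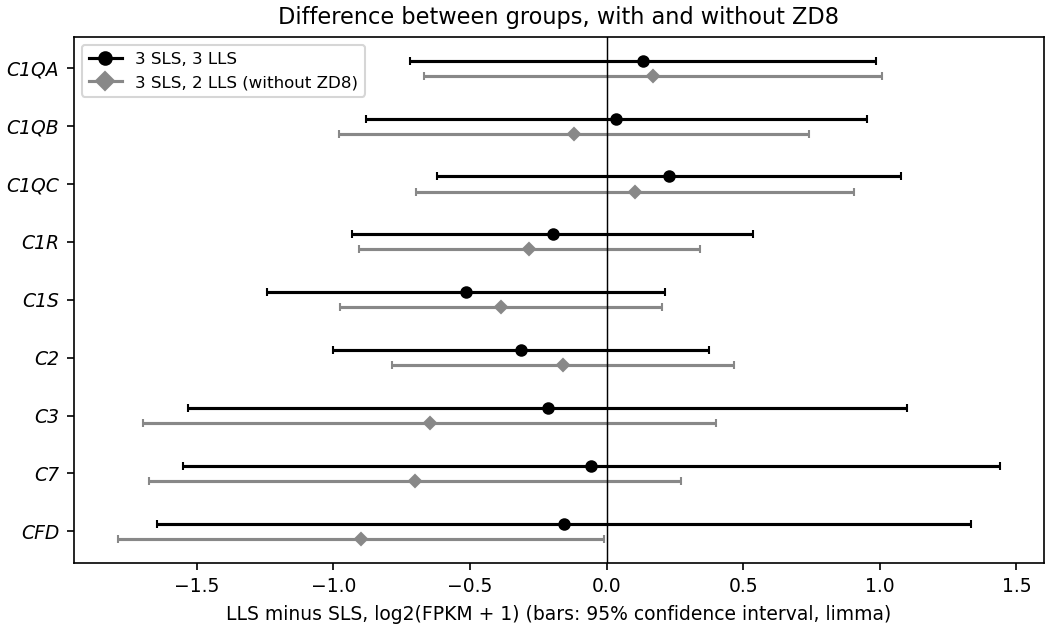
Difference of LLS from SLS on the log2(FPKM + 1) scale, with 95% confidence intervals from limma, for 6 ovaries (circles) and for 5 ovaries without ZD8 (diamonds). The circles lie between -0.52 and 0.23, and 8 of the 9 grey intervals include 0, that of CFD ending at -0.01.

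The rest of the complement system was read from lists of 45 genes, of which 43 were in the table under the listed symbols and 27 had at least 1 FPKM in at least 3 ovaries. None of the 27 was called by limma, and their median difference was -0.13 beside 0.02 over all tested genes (without ZD8, -0.16 over 26 genes beside -0.10). In 2 of the 27 (7.41%), COLEC10 and CD46, all LLS values lay below all SLS values, as they did in 3.17% of all tested genes. COLEC10 met the filter only through the SLS ovaries, where it was higher, so its place in this count partly follows from the filter. The background was counted under the same filter. Of the terminal genes, C7 was tested and 0 of the 6 others reached the filter. C6, the protein that C7 joins, was at 0.0401 to 2.39 FPKM, and C5, C8B, C8G and C9 reached 1.13, 1.18, 2.71 and 0.827 FPKM at most. C8A was listed at 0, with 0 reads, in each ovary. C6, C8B, C8G and C5 had their highest values in ZD8, with 253 reads for C6, as did 44.6% of all tested genes.

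Of the other initiating genes, C4A, whose product C1s cuts to start the C3-cutting enzyme, was near the level of C3. It was at 172, 123 and 321 FPKM in SLS and at 65.6, 122 and 322 FPKM in LLS. PTX3, a pentraxin that C1q binds, was at 132, 196 and 31.8 FPKM in SLS and at 534, 223 and 12.5 FPKM in LLS. Its lowest ovaries, ZD8 and ZD12, were the highest for C3, C7, C4A and CFD, and its highest ovary, ZD5, was the lowest for these 4 genes. COLEC12, a scavenger receptor with a collagen-like domain, had a median of 27.0 FPKM. COLEC10, a collectin, was higher in every SLS ovary (1.16 to 3.84 FPKM) than in the LLS ovaries (0.366 to 0.683 FPKM), with a difference of -0.92 and an adjusted p of 0.999 by limma (-0.83 and 0.757 without ZD8). It reached 1 FPKM in the SLS ovaries only, so it was tested only through the group where it was higher. The mannose-binding lectin gene MBL1 was listed at 0 in each ovary, MBL2 reached 0.215 FPKM, and CFB, which factor D cuts, had a median of 1.37 FPKM against 11.5 FPKM for CFD.

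**Figure D5:**
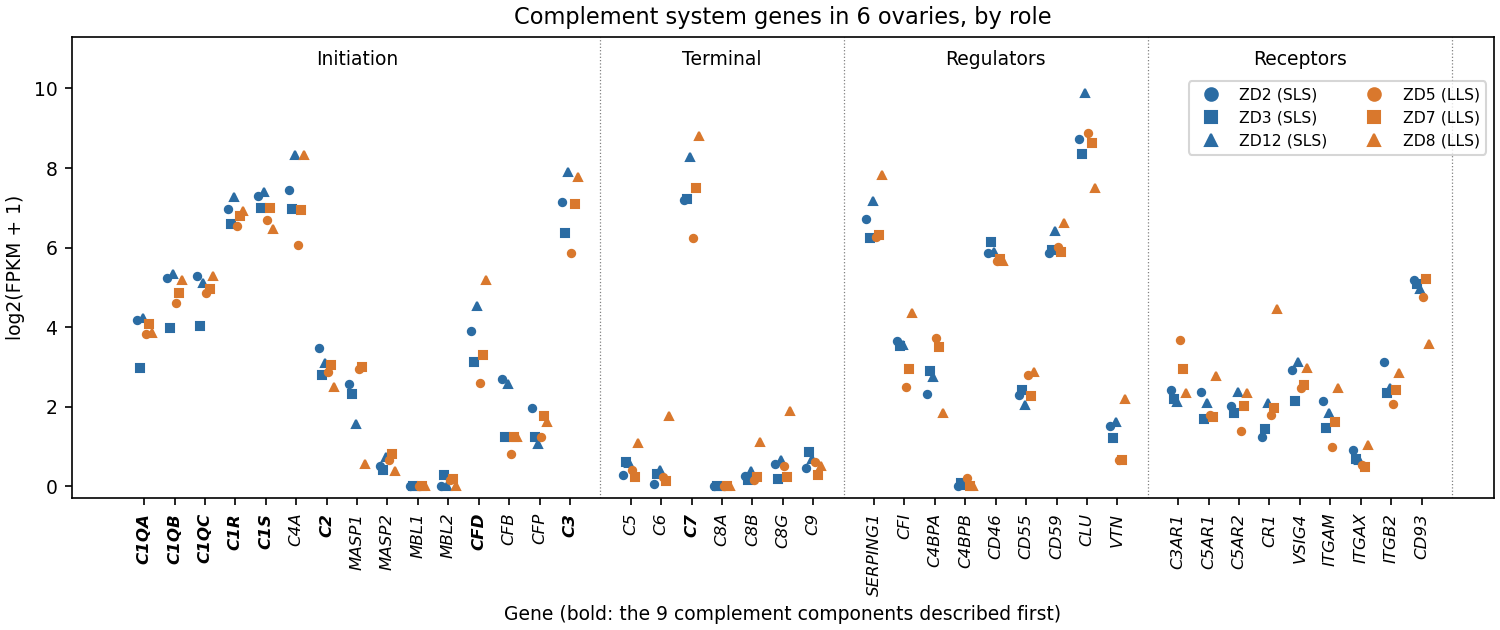
log2(FPKM + 1) of complement system genes in the 6 ovaries, grouped by role, with the 9 components in bold. C7 stands above the other terminal genes, none of which exceeds 2.71 FPKM.

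Among the regulators, CLU, the clusterin that binds terminal complexes in solution, was the highest with a median of 408 FPKM (178 to 942). SERPING1, the inhibitor of C1r and C1s, had a median of 92.1 FPKM and CD59, which blocks the pore, 61.9 FPKM. CD46, a membrane cofactor for the cutting of C3b, was at 57.5, 69.0 and 58.1 FPKM in SLS and at 49.5, 51.9 and 49.5 FPKM in LLS, with every LLS ovary below every SLS ovary. Its difference was -0.28 with an adjusted p of 0.999 by limma (-0.27 and 1.0 without ZD8). Of the receptor list, CALR, C1QBP and CD93 had the highest medians, 598, 74.5 and 31.4 FPKM, and the first of these is mainly a chaperone of the endoplasmic reticulum. CR1, the receptor for C3b and C4b, was at 20.8 FPKM in ZD8 and at no more than 3.25 FPKM elsewhere. Without ZD8, 6 of the 26 other genes tested lay above all SLS values in LLS, where the background was 7.53%, and 6 below, where it was 11.5%. Those above included MASP1, COLEC12, PTX3, C4BPA and C3AR1, and the 6 below were C4A, CFB, COLEC10, CFI, CD46 and VTN. Without ZD8, COLEC10 and VTN met the filter of 1 FPKM in 3 ovaries only through SLS, where they were higher. No gene could then meet it through the LLS ovaries alone, so the count below partly follows from the filter. The background was counted under the same filter.

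Marker genes of cells that make complement elsewhere were read beside these levels. The summed level of 10 macrophage markers was 52.8 to 84.7 FPKM in SLS and 57.9 to 74.6 FPKM in LLS, with 84.7, 52.8 and 59.5 FPKM in SLS and 57.9, 69.6 and 74.6 FPKM in LLS. Its lowest ovary, ZD3, was also the lowest for the C1q chains, while ZD12, the highest for C1QA and C1QB, was among the lower ones for the macrophage sum. The markers differed among themselves. CSF1R, the receptor for a macrophage growth factor, was at 13.1, 5.11 and 10.61 FPKM in SLS and at 6.89, 10.2 and 15.9 FPKM in LLS, lowest in ZD3, while CD14 and MSR1 were lowest in ZD8 and CD163 and MRC1 in ZD5. The fibroblast markers, all 6 of them expressed, summed to 3768 to 9586 FPKM in SLS and 3373 to 4772 FPKM in LLS, with the highest sum in ZD2. In ZD8 the collagen genes COL1A1, COL1A2 and COL3A1 were at their lowest, and DCN was the highest of the 6 markers. DCN, the gene of decorin, was at 859, 563 and 754 FPKM in SLS and at 363, 453 and 1854 FPKM in LLS, lowest in ZD5 and highest in ZD8 as C7 and CFD were, while PDGFRA was lowest in ZD7 (93.9 FPKM) and highest in ZD8 (220 FPKM), and LUM was highest in ZD5 (9.91 FPKM). The 7 liver markers summed to 236 to 307 FPKM in SLS and 102 to 276 FPKM in LLS, nearly all of it APOA1 (101 to 307 FPKM), an apolipoprotein gene. Of the others, APOA2, FGA and FGG were listed at 0 in each ovary and ALB was at no more than 0.340 FPKM. The 6 adipocyte markers summed to 4.06 to 7.65 FPKM in SLS and 4.74 to 25.3 FPKM in LLS, mostly through LPL, a lipase gene at 3.45 to 24.9 FPKM. ADIPOQ, PLIN1 and LEP were at no more than 0.168 FPKM. LPL was highest in ZD5, and FABP4, at no more than 0.961 FPKM, was highest in ZD8, while CFD, which is also known as adipsin, was lowest in ZD5 and highest in ZD8. The summed level of 6 T cell markers was 3.75 to 5.36 FPKM in SLS and 2.61 to 15.1 FPKM in LLS, with the highest sum in ZD8, and the 5 neutrophil markers summed to no more than 5.18 FPKM. The part of these cells in the levels of complement was not tested.

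The genes with the most similar pattern were found by the root mean square difference, over the 6 ovaries, of log2(FPKM + 1) after subtracting each gene's own mean. For CFD these were DDAH2 (0.132), MXRA8 (0.146) and FOLR2 (0.151), a folate receptor gene at 14.5, 7.53 and 24.6 FPKM in SLS and 6.81, 11.8 and 38.7 FPKM in LLS. For C7 they were QRFPR (0.195), GSN (0.217) and LRP3 (0.275), and for C3 they were RPL13A (0.219), AGT (0.223) and NOP53 (0.231). The nearest genes to C1QA were OGFOD2, LOC100524737 and LRWD1 (0.106 to 0.126), to C1QB C2H11orf68, FASTK and NPRL3 (0.0821 to 0.0993), and to C1QC YIPF2, RPUSD1 and CPXM1 (0.087 to 0.1). C1QC came at place 11 among the genes nearest to C1QB, and C1QB at place 8 among those nearest to C1QC, while C1QA was at place 77 for C1QB and 32 for C1QC, and these were at places 53 and 39 for C1QA. C3, C7 and CFD were at places 24 to 191 for each other. For C1R the nearest were UBXN6, AP5Z1 and ADCK5 (0.0383 to 0.0445), for C1S DDX39A, HPDL and PALD1 (0.0588 to 0.0667) and for C2 TUBB, ACOT8 and NOP9 (0.0409 to 0.0667). Genes that vary little are close to many others on this measure, and C1R, C1S and C2 were the 3 members that varied least.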

How the data were processed

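FPKM values per gene and ovary were deposited by the authors after read cleaning (NGSQCToolkit) and HISAT2 mapping against Sscrofa11.1. The counting program is not given in the sources used here. The small RNA table was not used. Whole reads (within 0.001) came back from FPKM for 23477 of 23546 genes above 0 (99.71%) with the longest RefSeq transcript. Groups follow the labels, with 1 library per sow, so p-values measure the spread between sows. Genes with at least 1 FPKM in at least 3 of the 6 libraries were fitted on log2(FPKM + 1) by limma 3.58.1 in R 4.3.3 with a trended variance, and p-values were adjusted by Benjamini-Hochberg over all 12260. The paper's DESeq2 needs counts and was not run, either on the deposited FPKM or on the reads recovered from them. The fit was tested on simulated data. Proteins were translated from the genome and aligned globally with Biopython 1.88. Named genes were the 9 components, their 3 nearest genes, and the other complement genes that did not overlap between groups or had the 3 highest medians of a list. CR1, C6 and the other genes named outside this rule were chosen after their values were seen. The members and lists were chosen with earlier results of these data known. Alternatives covered the pseudocount, the filter, scaling, weights, the variance prior, the threshold and leaving out each ovary. The depth per library limits the precision of low values. A gene of the lists is not reported here by name.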

Additional observations from a re-analysis of the deposited data

How the results depend on the processing

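No member was called under any alternative at an adjusted p (lowest adjusted p of a member 0.309 by limma). The count of all genes called was 0, and became 13 with array weights, 0 to 20 with each ovary left out (20 without ZD8, 0 otherwise) and 99 at an unadjusted p under 0.05 with the same log2 difference beyond 1. C1R, C1S and C2 kept their direction under all alternatives (with each ovary left out, C1R ran from -0.37 without ZD3 to -0.0346 without ZD12, C1S from -0.66 to -0.39, and C2 from -0.48 without ZD3 to -0.13 without ZD2), and of the 126 alternative values of single members 111 did. The changes of the filter and of the variance prior cannot move a member's difference. Their values are among the 111 and kept their direction by construction. Array weights moved the median of all genes to -0.117. With them C1QA turned to -0.0588, C1QB to -0.35 and C1QC to -0.0757, while CFD moved from -0.16 to -1.08 (adjusted p = 0.309), C3 from -0.22 to -0.88 and C7 from -0.06 to -0.83. By limma with these weights, 1 of the 9 members was at an unadjusted p under 0.05, beside 1252 of the 12260 genes tested, so this count says nothing particular about complement. With quantile normalization C7 turned to 0.0404. With each ovary left out, C1QA ran from -0.28 to 0.36, C1QB from -0.40 to 0.28, C1QC from -0.16 to 0.47, C3 from -0.65 to 0.31, C7 from -0.70 to 0.58 and CFD from -0.90 to 0.39. The C1q chains turned without ZD3 (the lower ends), and C1QB also without ZD8 (-0.12). C3, C7 and CFD turned without ZD5 (the upper ends) and without ZD12 (0.17, 0.30 and 0.18), and CFD also without ZD7 (0.0390). With the curated transcript length, chosen after seeing the data, the median ratio of C1QA to C1QC was 0.829 in place of 0.459, that of C1R to C1S 0.649 in place of 0.880, and the median of C1S 172 FPKM in place of 127 FPKM. The cause of the other changes was not tested. No paired analysis was possible because the labels number no pairs.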
